A study of Homo sapiens with 8 samples.

Results

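The genes of the epithelial to mesenchymal transition (EMT) were examined in 2 epithelial ovarian cancer (EOC) cell lines, MDAH and SKOV3, with and without silencing of SFPQ. All probes that were not controls and whose RefSeq accession belongs to CDH1, CDH2, EPCAM, VIM, FN1, ZEB1, ZEB2, SNAI1, SNAI2 or TWIST1 were taken, which gave 15 of the 50599 probes of the arrays. All 10 genes had a probe, out of 20503 genes named, and all 10 entered the fit over 15550 genes. Between MDAH and SKOV3 control cells 9 of them differed, beside 57.5% of all genes tested. On silencing 1 of them, SNAI1, passed the test in MDAH cells (2.03% of all genes), in a call that no fit without 1 of the arrays kept, and 0 passed in SKOV3 cells (0.997%). The same order of the comparisons, many calls between the lines and few on silencing, held for all genes.

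EMT is the process in which epithelial cells give up their cell to cell junctions and take on a spindle-like, motile form. E-cadherin (CDH1) and EPCAM hold epithelial cells together, whereas N-cadherin (CDH2), the intermediate filament protein vimentin (VIM) and the matrix protein fibronectin (FN1) are classical mesenchymal markers. ZEB1, ZEB2, SNAI1, SNAI2 and TWIST1 encode transcription factors that drive the process, and ZEB and SNAI proteins bind E-box letters and repress CDH1. Ovarian cancer cells often carry epithelial and mesenchymal markers side by side. SFPQ is a nuclear RNA-binding protein that acts in splicing and transcription.

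RNA was measured on 8 single-colour Agilent arrays, 2 for each of 4 groups. MDAH is the line MDAH-2774. In each line 2 arrays held control cells and 2 held cells in which SFPQ was silenced by lentiviral short hairpin RNA, namely sh-SFPQ#2 on the first and sh-SFPQ#3 on the other array. The labels name both controls of a line as control shRNA, while in the study's methods each line has a parental and an sh-ctrl sample, so control here means only that SFPQ was not silenced. Stable SFPQ-silenced clones could not be made, because the cells died when silencing was kept up, so each array stands for a transduced population at 1 time that the labels do not give. The sources do not say whether the 2 arrays of a group came from separate cultures. The p-values therefore measure only the spread between these arrays, part of which may be technical. That spread also holds any difference between the 2 shRNAs, or between a parental and an sh-ctrl control. The 8 arrays shared 1 slide and 1 scan, with the controls of a line placed ahead of its silenced samples, so that place on the slide and silencing cannot be told apart.

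Levels are log2 signals minus the 75th percentile (P75) of the array, so that 0 is the signal that 3 in 4 probes do not exceed. They compare arrays at 1 probe and never 1 gene with another. A probe counted as well above background on an array by the scanner's own flag, which held for 47.7% to 57.0% of probes. The P75 itself was 244 on the MDAH array with sh-SFPQ#3 and between 387 and 496 on the other 7 arrays. SFPQ fell in both lines, by 1.50 in MDAH (limma, adjusted p = 0.0328) and by 2.01 in SKOV3 (limma, adjusted p = 0.0299). These SFPQ calls were lost without either MDAH control, without either SKOV3 control or without the sh-SFPQ#3 array of the line in question (adjusted p from 0.0645 to 0.218). They were also lost with no filter (0.0510 and 0.0599), with the 4 arrays of a line alone (0.0628 and 0.157) and with each gene tested on its own spread (0.386 and 0.429), and in MDAH with median centring (0.0609). The direction was kept in each. The epithelial markers KRT7, KRT8, KRT18, KRT19 and EPCAM were well above background on all 8 arrays, as was PAX8, a marker of ovarian carcinoma, whereas MSLN was on 0. Of 8 leukocyte and endothelial markers, between 3 and 5 were well above background on each array, CD3E on none.

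From the promoter table of RefSeq (GRCh38.p14), 12 windows of 300 bases were taken, from 250 bases before to 50 after a start. They belonged to 5 of the genes: 7 to ZEB1, 2 to CDH2, and 1 each to VIM, FN1 and ZEB2. Windows of the other EMT genes were not searched, whether or not the table holds any, so the count below does not cover all 10 genes. Windows on the chromosome of SNAI2 were left out of this search and kept in the count over the whole table. The 12 windows were searched on both strands for CACCTG and its reverse complement CAGGTG. These are the E-box letters that ZEB and SNAI proteins are known to bind. The letters were in 2 of the 12 windows, both of ZEB1, beside 7200 of 34943 windows of the whole table (20.6%). A match describes the letters of a window and is not a site, and the windows of VIM and ZEB2 below, which hold no match, show only that these letters are not in them. The 2 ZEB1 windows with a match are shown because ZEB1 had the lowest adjusted p between the lines among the 5 genes searched. VIM is shown as a mesenchymal gene that was higher in the same line, and ZEB2 because its brightest probe rose over both lines. Each is read 5′ to 3′ on the strand of the gene with the matches in capitals. The first ZEB1 window is chr10:31318167-31318466 (+ strand), with 1 match, and the second is chr10:31318966-31319265 (+ strand), with 3. The VIM window is chr10:17227991-17228290 (+ strand) and the ZEB2 window is chr2:144520070-144520369 (- strand).
ZEB1, first window: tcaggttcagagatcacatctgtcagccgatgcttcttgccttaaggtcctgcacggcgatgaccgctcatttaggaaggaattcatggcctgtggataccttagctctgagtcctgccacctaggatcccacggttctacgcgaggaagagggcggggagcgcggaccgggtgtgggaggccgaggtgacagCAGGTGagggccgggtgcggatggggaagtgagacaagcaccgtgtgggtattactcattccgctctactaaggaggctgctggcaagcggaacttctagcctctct
ZEB1, second window: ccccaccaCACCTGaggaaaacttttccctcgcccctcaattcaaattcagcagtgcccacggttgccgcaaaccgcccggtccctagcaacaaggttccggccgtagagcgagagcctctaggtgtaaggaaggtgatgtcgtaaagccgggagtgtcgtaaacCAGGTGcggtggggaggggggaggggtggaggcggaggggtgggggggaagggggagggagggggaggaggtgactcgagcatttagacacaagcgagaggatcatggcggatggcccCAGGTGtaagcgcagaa
VIM: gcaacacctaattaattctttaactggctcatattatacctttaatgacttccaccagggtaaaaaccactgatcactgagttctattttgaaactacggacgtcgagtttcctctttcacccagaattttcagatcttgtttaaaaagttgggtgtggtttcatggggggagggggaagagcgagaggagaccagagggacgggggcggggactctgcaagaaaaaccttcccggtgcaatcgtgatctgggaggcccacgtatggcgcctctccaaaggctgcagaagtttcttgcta
ZEB2: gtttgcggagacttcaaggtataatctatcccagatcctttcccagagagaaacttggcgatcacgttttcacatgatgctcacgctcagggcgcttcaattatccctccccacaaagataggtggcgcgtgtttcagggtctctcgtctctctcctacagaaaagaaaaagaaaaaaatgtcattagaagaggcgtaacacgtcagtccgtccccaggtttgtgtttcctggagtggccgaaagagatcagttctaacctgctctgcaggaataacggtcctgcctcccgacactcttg

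The first comparison was between the control cells of the lines, and asked where each line stands between the epithelial and the mesenchymal state before silencing. Of the 10 genes, 9 passed the test, 5 of them higher in SKOV3 and 4 higher in MDAH, beside 57.5% of all genes tested (30.7% higher and 26.8% lower in SKOV3). CDH2, VIM, ZEB1, SNAI2 and TWIST1 were higher in SKOV3, and CDH1, EPCAM, FN1 and SNAI1 were higher in MDAH. SNAI2 and FN1 entered the test only through the line where they were high, so their calls carry that choice. Among genes well above background on all 8 arrays, 6 of the EMT genes passed, beside 7142 of all 12380 genes. The groups did not overlap for 9 genes, beside 85.2% of all genes (45.1% higher and 40.1% lower). Each line is 1 cell line, so the comparison describes these lines only. In bulk RNA, fewer cells of a type and less RNA per cell cannot be told apart.

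**Figure D1:**
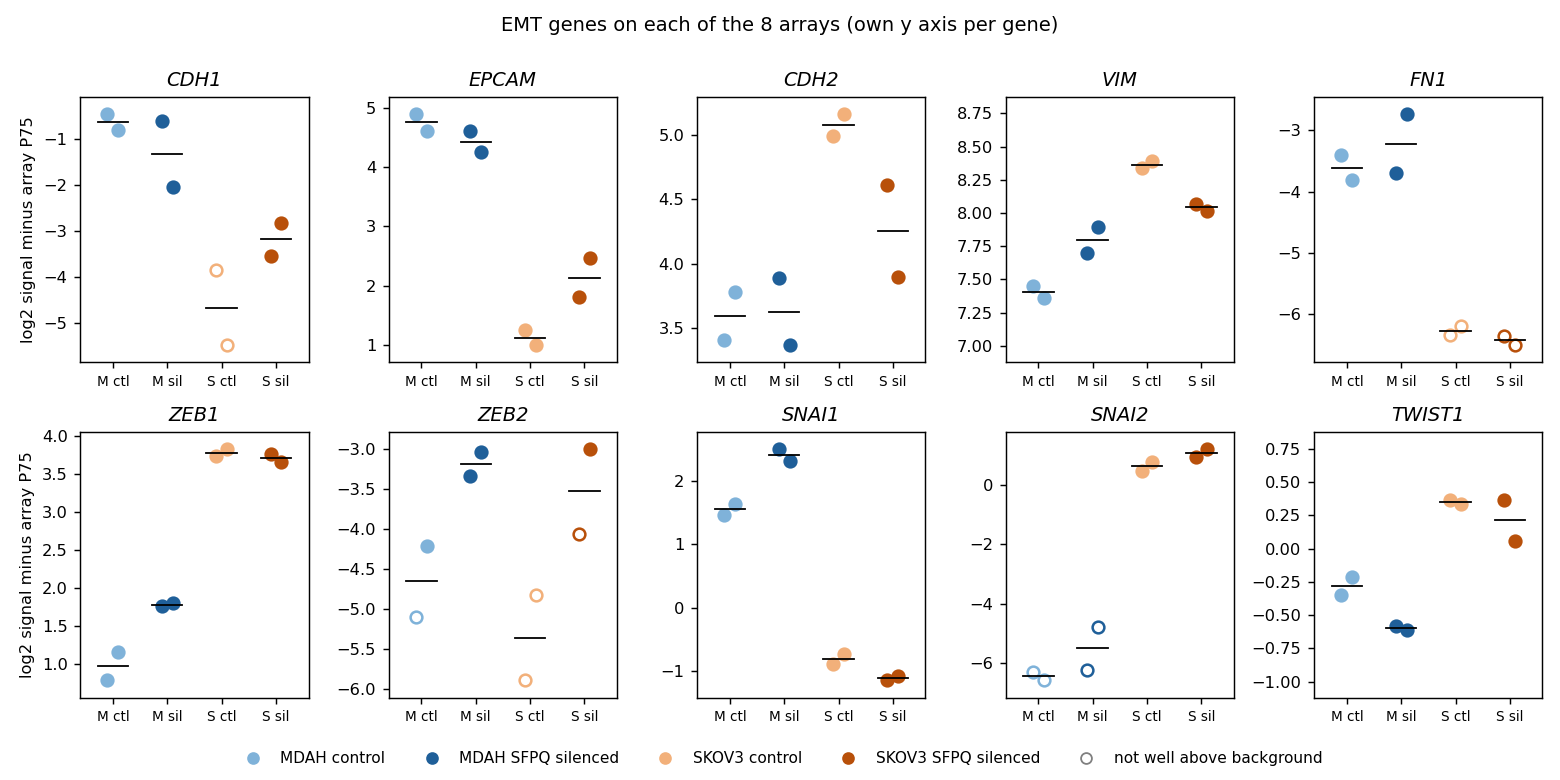
Level of each EMT gene on the 8 arrays, as log2 signal minus the P75 of the array, at the brightest probe of the gene. M is MDAH, S is SKOV3, ctl is control and sil is SFPQ silenced, points are arrays with the lower-numbered control or shRNA on the left, lines are group means of 2 arrays, and open points are not well above background. The distance between the control groups exceeded the change on silencing in either line for every gene but ZEB2, and SNAI2 and FN1 were each well above background in 1 line.

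E-cadherin and EPCAM mark the epithelial state, and both were lower in SKOV3. CDH1 was at -0.44 and -0.79 in MDAH and at -3.85 and -5.49 in SKOV3, where neither control array was well above background. It was at least 9.60-fold higher in MDAH (limma, adjusted p = 0.0019 for the measured difference of -4.05, SE 0.65, n = 2). Such a bound sets the bright group against the dimmest signal of any probe with the flag on the array, or the gene's own signal if higher. It is not the limit of a single probe, and every bound given here holds only for the processing used. In other settings the CDH1 difference was as small as -1.88. With the plain test of 2 means that the study's statistical methods name, applied to each gene on its own spread, CDH1 did not pass. EPCAM was at 4.90 and 4.62 in MDAH and at 1.25 and 0.99 in SKOV3. All 4 arrays were well above background, and EPCAM was 12.5-fold lower in SKOV3 (difference -3.64, SE 0.26; limma, adjusted p = 6.12e-05).

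Among the mesenchymal markers, N-cadherin and vimentin were higher in SKOV3, and fibronectin was not. CDH2 was at 3.41 and 3.78 in MDAH and at 4.99 and 5.16 in SKOV3, a 2.79-fold difference (1.48, SE 0.30; limma, adjusted p = 0.0049). Its second probe differed by 2.10 in the same direction. VIM was at 7.45 and 7.36 in MDAH and at 8.34 and 8.39 in SKOV3, a 1.94-fold difference (0.96, SE 0.14; limma, adjusted p = 0.0014), with a bright signal in both lines. FN1 was dim at its only probe, at -3.40 and -3.80 in MDAH and at -6.34 and -6.19 in SKOV3, where it was not well above background on any array. It was at least 1.30-fold higher in MDAH (limma, adjusted p = 0.00053 for the measured difference of -2.66). This call was lost with normexp background correction (difference -0.60, adjusted p = 0.0529). FN1 entered the test only through MDAH, where it was high, so the call carries that choice.

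The transcription factors split between the lines. ZEB1 was at 0.78 and 1.16 in MDAH and at 3.73 and 3.82 in SKOV3, 7.0-fold higher (2.81, SE 0.17; limma, adjusted p = 2.88e-05), and its second probe differed by 2.20. SNAI2, which encodes Slug, was at -6.29 and -6.58 in MDAH, not well above background, and at 0.46 and 0.79 in SKOV3. It was at least 45.3-fold higher in SKOV3 (limma, adjusted p = 3.07e-05 for the measured difference of 7.06, SE 0.44). In other settings the SNAI2 difference was as small as 3.61. SNAI2 entered the test only through SKOV3, where it was high, so the call carries that choice. SNAI1, which encodes Snail, ran the other way, at 1.47 and 1.63 in MDAH and at -0.89 and -0.74 in SKOV3, 5.14-fold lower (-2.36, SE 0.15; limma, adjusted p = 3.73e-05). SNAI1 and SNAI2 thus had their higher level in different lines.

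TWIST1 differed little between the lines. It was at -0.35 and -0.22 in MDAH and at 0.36 and 0.34 in SKOV3, a 1.55-fold difference (0.63, SE 0.16; limma, adjusted p = 0.0130). The call was lost without MDAH control 1, SKOV3 control 1 or SKOV3 control 2 (adjusted p = 0.0763, 0.0672 and 0.0586) and with the mean of both TWIST1 probes (0.30, adjusted p = 0.581), since the dimmer probe differed by -0.03. ZEB2 has 3 probes. The brightest, for the non-coding accession NR_033258, was at -5.09 and -4.20 in MDAH and at -5.89 and -4.82 in SKOV3, and of these 4 arrays it was well above background only on MDAH control 2. The groups overlapped, ZEB2 did not pass the test (-0.71; limma, adjusted p = 0.265), and its sign turned with normexp (0.04). The other 2 probes, for the coding accession NM_014795, were well above background on 1 and 0 of the 8 arrays. Before scaling, 1 of them had signals of 4.06 and 10.3 in MDAH controls and 25.6 and 50.8 in SKOV3 controls, higher in SKOV3. The other overlapped, at 16.5 and 13.9 against 12.2 and 23.8.

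**Figure D2:**
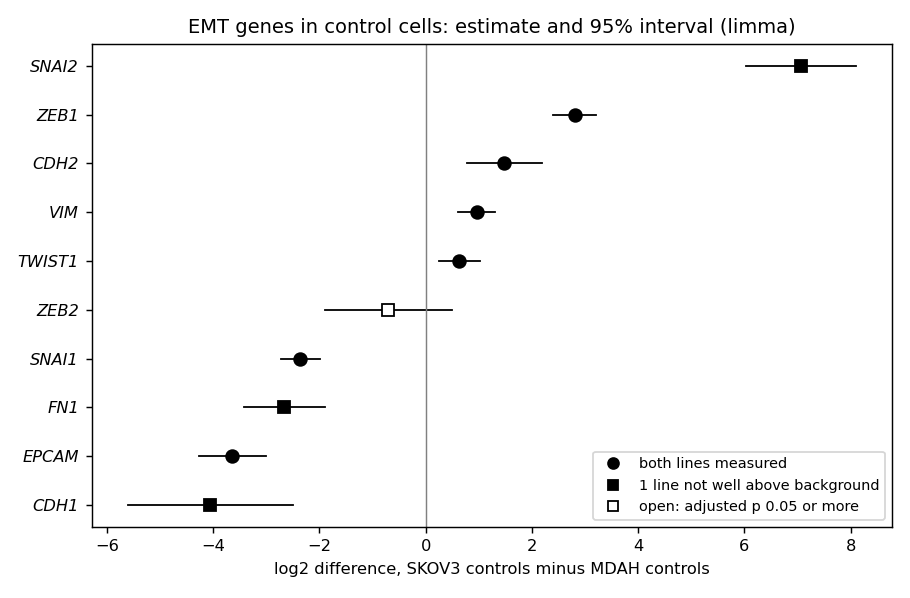
Difference between SKOV3 and MDAH control cells for each EMT gene, as log2 with its 95% confidence interval from limma (2 arrays a line). Squares mark genes not well above background in 1 line, whose true difference is only bounded, and the open symbol marks ZEB2, which did not pass. SNAI2 stood at 7.06 and CDH1 at -4.05.

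Genes of the wider epithelial and mesenchymal programmes also went both ways between the lines. Over 6 lists, 89 of 118 genes tested passed (75.4%), and the counts below stand beside 30.7% of all genes higher and 26.8% lower in SKOV3. A gene given below as at least a fold was not well above background in the controls of the dimmer line. Such a gene could enter the test through the other line alone, where it was high. Of 24 epithelial junction genes tested, 14 were lower and 6 higher in SKOV3, with a list median of -0.81 beside 0.05 for all genes. P-cadherin (CDH3) had a difference of -6.30, the tight junction gene MARVELD3 was at least 3.70-fold lower, and the desmosomal gene PKP2 was among those higher in SKOV3 (1.32). Of 14 epithelial surface genes, 6 were lower and 5 higher in SKOV3 (median -0.61). The protease inhibitor SPINT1 was at least 23.0-fold lower and keratin 19 (KRT19) had a difference of -4.75, whereas CD24 had a difference of 6.39. Among 12 epithelial regulators, 4 were higher and 4 lower (median -0.39). The transcription factors EHF and FOXA2 were at least 13.1-fold and 19.8-fold higher in SKOV3, and ELF3 and the splicing regulator ESRP2 stood at -3.08 and -2.00.

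Of 34 genes of mesenchymal matrix and cytoskeleton, 16 were higher and 8 lower in SKOV3 (median 0.80). The collagen gene COL5A1 stood at 6.94, while tenascin C (TNC) stood at -6.10 and the myosin light chain gene MYL9 was at least 35.7-fold lower. Of 14 further mesenchymal regulators, 8 were higher and 5 lower (median 1.06). HMGA2, a chromatin protein, stood at 3.65 and RUNX2 was at least 2.90-fold higher, whereas KLF8 was at least 37.3-fold and SOX9 at least 6.85-fold lower. In the TGF-beta pathway, a classical inducer of EMT, 8 of 20 genes were higher and 5 lower (median 0.56). LTBP1, which holds latent TGF-beta in the matrix, stood at 3.65 and the ubiquitin ligase SMURF2 at 3.40, while the ligand TGFB3 was at least 7.33-fold lower and the signal transducer SMAD3 stood at -2.54.

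**Figure D3:**
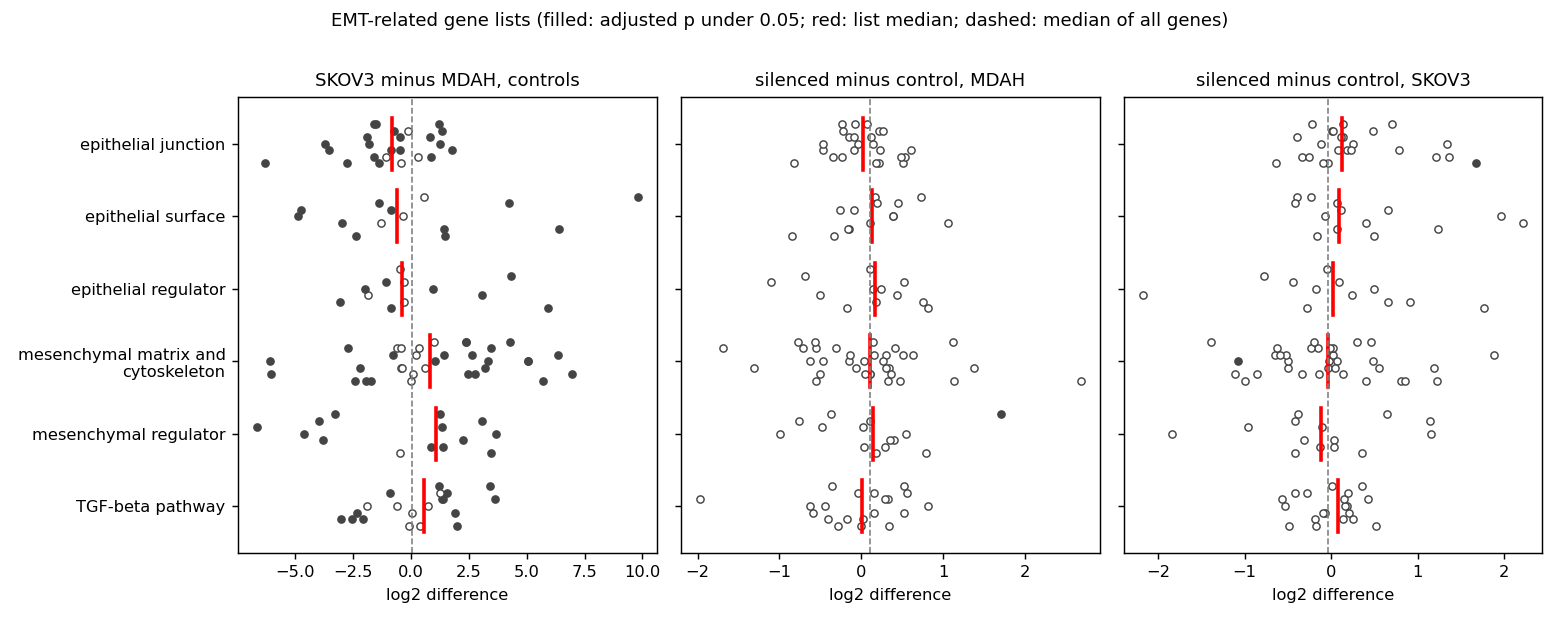
Log2 difference of each tested gene (points) in 6 EMT-related lists, for the control lines and for silencing in each line. Filled points passed an adjusted p of 0.05 in limma, red bars are list medians and dashed lines the median of all genes. The lists spread widely between the lines, and in the silencing panels only TWIST2 in MDAH and JUP and TNC in SKOV3 were filled.

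The second comparison asked whether the EMT genes moved when SFPQ was silenced. In MDAH cells 1 of the 10 genes passed, SNAI1, beside 2.03% of all genes (0.418% higher and 1.61% lower). Of all genes that passed, 79.4% were lower, and 62.7% were when arrays were centred on their medians. The median change of the 10 was 0.39 beside 0.10 for all genes, 7 were higher and 3 lower, and 4 were higher at an unadjusted p under 0.05, beside 13.1% of all genes. The groups did not overlap for 7 genes, 5 higher and 2 lower, beside 57% of all genes (35.6% higher and 21.4% lower). These 7 include SNAI2, not well above background on any MDAH array, and EPCAM, whose nearest arrays were almost equal. The MDAH silenced arrays had a higher summed level of the 8 leukocyte and endothelial markers (5.23 and 5.64 times the P75, against 2.32 and 3.22 in the controls), which was almost wholly CD68, a lysosomal gene that many cells use. Without CD68 the sums were 0.346 and 0.505 against 0.346 and 0.393, and none of these markers passed the test. Their part in the results was not tested.

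SNAI1 was at 1.47 and 1.63 in control MDAH cells, and silencing gave 2.49 under sh-SFPQ#2 and 2.31 under sh-SFPQ#3. Both silenced arrays lay above both controls, and SNAI1 rose 1.81-fold (0.85, SE 0.15; limma, adjusted p = 0.0488, n = 2). The call stood just inside the threshold. It was lost when any 1 of the 8 arrays was left out (adjusted p from 0.0623 to 0.335) and passed in 5 of 12 other settings (adjusted p from 0.0391 to 0.384), with a difference of at least 0.73 throughout. Before scaling, the controls had signals of 1370 and 1496, the sh-SFPQ#2 array 2278 and the sh-SFPQ#3 array 1212. So with sh-SFPQ#3 the gene was higher only relative to the lower P75 of that array.

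ZEB1 was at 0.78 and 1.16 in control MDAH cells and at 1.76 and 1.80 in silenced cells. The groups did not overlap, and the difference of 0.81 (SE 0.17) missed the threshold (limma, adjusted p = 0.0720), except with an intensity trend in limma (adjusted p = 0.0409). Before scaling, the controls had signals of 852 and 1079, the sh-SFPQ#2 array 1370 and the sh-SFPQ#3 array 850. So with sh-SFPQ#3 this probe was higher only relative to the lower P75 of that array. The second ZEB1 probe was at -1.67 and -1.60 against -1.61 and -1.26, a difference of 0.19. The probes of ZEB1 therefore did not give the same size of change. The ZEB2 probe was at -5.09 and -4.20 in MDAH controls and at -3.33 and -3.04 in silenced cells, well above background on 3 of these 4 arrays (1.46; limma, adjusted p = 0.160, and 0.0369 with the replicate number as a block).

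VIM stood at 7.45 and 7.36 in MDAH controls and at 7.70 and 7.89 in silenced cells, without overlap (0.39; limma, adjusted p = 0.177). Before scaling, the controls had VIM signals of 86832.8 and 79465.5, the sh-SFPQ#2 array 84146.8 and the sh-SFPQ#3 array 57933. So VIM was higher only relative to the lower P75 of the silenced arrays, and in other settings its difference was as small as 0.13. TWIST1 stood at -0.35 and -0.22 against -0.58 and -0.61, also without overlap (-0.31; limma, adjusted p = 0.285). EPCAM was at 4.90 and 4.62 against 4.62 and 4.25, a step no larger than that between the arrays of 1 group (-0.33; limma, adjusted p = 0.486). For CDH1 the shRNAs differed, with -0.60 under sh-SFPQ#2 and -2.04 under sh-SFPQ#3 beside -0.44 and -0.79 in the controls (-0.70; limma, adjusted p = 0.547). CDH2 overlapped (0.03, and below 0 with quantile normalization, normexp or the authors' value table), FN1 overlapped (0.39), and SNAI2 was not well above background on any MDAH array.

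In SKOV3 cells 0 of the 10 genes passed in limma, beside 0.997% of all genes. At an unadjusted p under 0.05 the count was 3, with EPCAM and ZEB2 higher and CDH2 lower, beside 19.5% of all genes. With each gene tested on its own spread it was 1, beside 11.3% of all genes, and 0 after adjustment. The median of the 10 was -0.10 beside -0.04 for all genes. The groups of 8 of the 10 did not overlap, 4 higher and 4 lower, beside 58% of all genes (25.9% higher and 32.1% lower). These 8 include FN1, which was not well above background on any SKOV3 array and whose nearest arrays were almost equal.

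EPCAM was at 1.25 and 0.99 in control SKOV3 cells, and silencing gave 1.80 under sh-SFPQ#2 and 2.46 under sh-SFPQ#3. Both silenced arrays were above both controls and below every MDAH array (1.01, SE 0.26; limma, adjusted p = 0.123, 95% interval 0.38 to 1.64). CDH1 was at -3.85 and -5.49 in the controls and at -3.55 and -2.82 in silenced cells, where both arrays were well above background (at least 1.62-fold; limma, adjusted p = 0.273). CDH2 was at 4.99 and 5.16 before silencing and lower on both silenced arrays, at 4.62 under sh-SFPQ#2 and 3.90 under sh-SFPQ#3 (-0.82, SE 0.30; limma, adjusted p = 0.204). Its second probe had the same order, at 3.0 and 3.24 against 2.70 and 1.74.

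VIM was at 8.34 and 8.39 in SKOV3 controls and at 8.07 and 8.01 in silenced cells (-0.32; limma, adjusted p = 0.280). SNAI1 was at -0.89 and -0.74 against -1.15 and -1.08 (-0.30; limma, adjusted p = 0.333), and SNAI2 at 0.46 and 0.79 against 0.95 and 1.20 (0.45; limma, adjusted p = 0.598). In these 3 genes the silenced arrays lay outside the controls by less than the test required. ZEB1, at 3.73 and 3.82 against 3.76 and 3.66, overlapped (-0.07, and above 0 with quantile normalization or the authors' value table). TWIST1 overlapped too (-0.14), and FN1 stayed without an array well above background. The ZEB2 probe, at -5.89 and -4.82 against -4.05 and -3.00, was well above background only with sh-SFPQ#3 (1.83; limma, adjusted p = 0.134, and 0.0282 with the replicate number as a block).

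**Figure D4:**
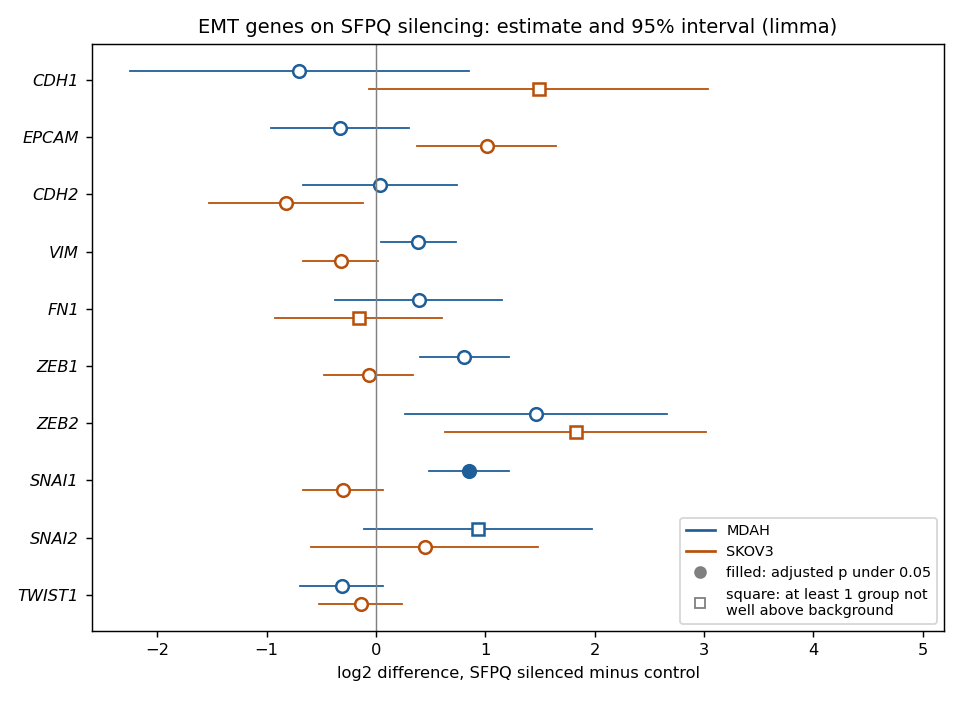
Change of each EMT gene on SFPQ silencing in MDAH (blue) and SKOV3 (orange), as log2 with its 95% confidence interval from limma (2 arrays a group). The filled point passed an adjusted p of 0.05 and squares mark a group not well above background. SNAI1 in MDAH (0.85) was the only filled point, and EPCAM stood at -0.33 in MDAH and 1.01 in SKOV3.

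Over both lines together 1 of the 10 genes passed, ZEB2, beside 5.66% of all genes (2.02% higher and 3.64% lower). Of all genes that passed in the average, 64.3% were lower, and 47.5% were when arrays were centred on their medians. The average change of the brightest ZEB2 probe, for a non-coding transcript, was 1.65 (SE 0.35; limma, adjusted p = 0.0480). Its silenced arrays lay above the controls in each line. The probe was dim, with 4 of 8 arrays well above background, and it entered the test only through the MDAH silenced group, where it was high. So the call carries that choice and the size of the average is not well measured. The other probes, of the coding transcript and near background, did not show the rise. Before scaling, their silenced and control arrays overlapped in each line. MDAH controls had signals of 4.06 and 10.3 against 4.84 and 4.11 silenced, and of 16.5 and 13.9 against 10.3 and 15.7. SKOV3 controls had 25.6 and 50.8 against 30.4 and 26.6, and 12.2 and 23.8 against 15.5 and 23.7. The call was lost with no filter (adjusted p = 0.0796), and without any 1 array other than SKOV3 sh-SFPQ#2 the call was lost (adjusted p from 0.0567 to 0.178). With normexp the average was 0.51 (adjusted p = 0.0607). The difference in the change between the lines was tested for all genes, and 0 of the 10 passed in limma, beside 0.0965% of all genes. At an unadjusted p under 0.05 there were 4, beside 14.9% of all genes. In SNAI1 (-1.15), ZEB1 (-0.87) and VIM (-0.71) the change was less positive in SKOV3 than in MDAH, and in EPCAM (1.34) it was more positive. Their adjusted p-values in limma were between 0.151 and 0.248, so a difference in response between the lines was not established for any of the 10 genes. For VIM this difference was as small as -0.22 in other settings.

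Of the 118 genes tested in the 6 EMT-related lists, 1 passed on silencing in MDAH (0.847%, beside 2.03% of all genes) and 2 in SKOV3 (1.69%, beside 0.997%). The gene in MDAH was TWIST2, a transcription factor close to TWIST1. It was at -2.50 and -2.13 in the controls and at -0.83 and -0.39 in silenced cells, a 3.27-fold rise (1.71, SE 0.21; limma, adjusted p = 0.0171). Its second probe had the same order, at -2.44 and -1.86 against -1.10 and -0.69. The call was lost without MDAH control 1 (adjusted p = 0.176) or MDAH control 2 (adjusted p = 0.0791), with the 4 MDAH arrays alone (0.0612) and with each gene tested on its own spread (0.390), and it held in 16 of 20 settings. In SKOV3, TWIST2 was at -1.11 and -1.0 against -1.37 and -1.50, and the difference between the lines was -2.09 (limma, adjusted p = 0.0774).

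**Figure D5:**
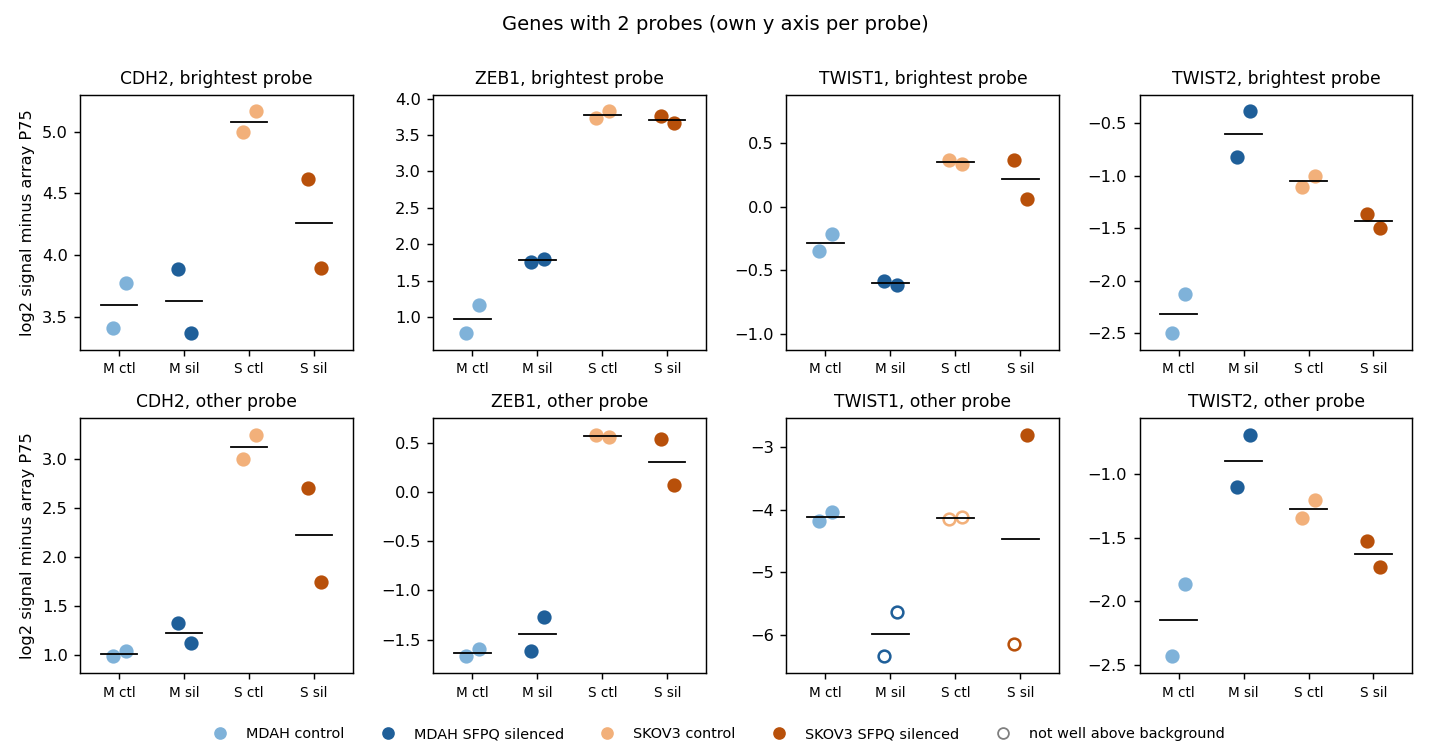
Genes with 2 probes (CDH2, ZEB1, TWIST1 and TWIST2), each probe on its own axis, as log2 signal minus the P75 of the array. Symbols are as in the plot of all 10 genes by array, and open points are not well above background. Both CDH2 and both TWIST2 probes gave the same order of groups, the ZEB1 probes differed in MDAH (0.81 and 0.19), and the dimmer TWIST1 probe was well above background on 3 arrays.

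In SKOV3, plakoglobin (JUP), a protein of desmosomes and adherens junctions, was at 1.29 and 1.88 in the controls and at 3.20 and 3.33 in silenced cells. It rose 3.20-fold (1.68, SE 0.24; limma, adjusted p = 0.0414), and in MDAH it stood at 0.18. The JUP call was lost without either MDAH control (adjusted p = 0.119), without SKOV3 sh-SFPQ#3 (0.138) or without SKOV3 control 1 (0.130), with no filter (0.0792), with the 4 SKOV3 arrays alone (0.165) and with each gene tested on its own spread (0.430), and it held in 13 of 20 settings. TNC was lower by at least 1.22-fold in SKOV3, where it was dim (limma, adjusted p = 0.0440), and leaving out any 1 array ended that call (adjusted p from 0.0532 to 0.158).

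In the average of both lines 9 of the 118 genes passed (7.63%, beside 5.66% of all genes). The desmosomal gene DSC2 (0.69), the tricellular junction gene LSR (0.85), JUP (0.93), SPINT1 (1.17), COL1A1 (1.18) and SOX9 (0.85) were higher, and CCN2 (-0.56), FOXA2 (-0.73) and HMGA2 (-1.42) were lower, with adjusted p-values in limma from 0.0230 to 0.0457. COL1A1, a fibrillar collagen, stood at -0.89 and -0.58 in controls against 0.20 and 0.61 in silenced MDAH cells and at -2.16 and -2.76 against -1.50 and -0.96 in SKOV3, and passed in neither line alone. HMGA2 was lower at its brightest probe in both lines, at -0.52 and -0.07 against -1.25 and -1.33 in MDAH and at 3.26 and 3.46 against 1.96 and 1.07 in SKOV3. A probe of another HMGA2 transcript ran the other way in MDAH, at -4.10 and -3.63 against -1.13 and -1.38, and the mean of the HMGA2 probes gave an average of 0.19. SOX9 in SKOV3 and FOXA2 in MDAH were not well above background on any array, and SPINT1 was not in SKOV3 controls. Each of these 9 calls was lost without MDAH control 1 (adjusted p from 0.0976 to 0.177). FOXA2 and SOX9 each passed in 5 of 17 settings and CCN2 in 7 of 18, and with normexp they stood at -0.11, 0.33 and -0.22. The other 6 genes passed in 7 to 12 of 17 or 18 settings. Among them, DSC2 stood at 0.39 with normexp and lost its call (limma, adjusted p = 0.0824), and SPINT1 was as low as 0.47 over the settings. By list, 3 of 24 junction genes were higher and 0 lower in the average, beside 2.02% and 3.64% of all genes, and in the TGF-beta pathway 0 of 20 passed in limma in either line or in the average (4 at an unadjusted p under 0.05 in the average, beside 26.4% of all genes).

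Last, the genes whose levels ran most like those of the 6 EMT genes that were well above background on all 8 arrays were listed, by Pearson's r over the 8 arrays. They were PCSK4 for EPCAM (r = 0.998), CCDC43 for VIM (0.985), HMCES for ZEB1 (0.998), LOC283683 for SNAI1 (0.999) and ADCY9 for TWIST1 (0.993). These values are the highest among all genes tested on 8 arrays, 4 of each line, and after each line's mean was removed they lay between 0.951 and 0.984. The next genes in order were SPAG4 and KAT8 for EPCAM, ZBTB2 and POLR2G for VIM, YWHAB and EDC4 for ZEB1, ZBTB20-AS1 and TMEM204 for SNAI1, and CAPNS1 and GPC1 for TWIST1. GPN1 and PRXL2C were among the closest genes for CDH2 (r = 0.991 and 0.990).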

How the data were processed

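RNA of 8 samples, 2 in each of 4 groups, was measured on single-colour arrays. Per the file headers, the authors' scanner software (Feature Extraction, version 11.5.1.1 in the headers and 10.7.3.1 in the submitters' processing notes) subtracted background, and the deposited intensity is linear and not normalized between arrays. A second deposited table, from the authors, holds log2 values, which on each array correlated at over 0.999 with quantile-normalized log2 signals centred on each probe's median. Its scale, centring and direction were read from this comparison. RNA input is 0.1 ug in the labels and 150 ng in the study's methods.

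After removal of control spots and outlier spots (209 to 310 an array), repeated spots were averaged as log2 and the P75 of each array was subtracted. No spot was saturated. Accessions named 28174 of 29181 probes through RefSeq, and the brightest probe stood for a gene. A gene was tested if both arrays of at least 1 group were well above background. limma 3.58.1 in R 4.3.3 was fitted to 4 groups with 5 contrasts and Benjamini-Hochberg adjustment over 15550 genes at 0.05, with 4 residual and 2.69 prior degrees of freedom. The number of arrays limits the precision. The fit was tested on simulated data.

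The 10 genes and all lists were chosen with earlier results of these data known. Named were SFPQ, the 10 genes, in each list and contrast the 2 highest and 2 lowest changes past the threshold, list genes past it in 2 or more contrasts, and the 3 genes most correlated with each EMT gene. Some items under this rule are not reported here. Alternatives were 2 other scalings, normexp with offset 50 (on median pixel intensities, since the mean was not used here), the authors' table, 2 filters, 2 uses of several probes, a replicate block, a Student test of each gene alone (named in the study's general statistical methods), an intensity trend, the 4 arrays compared alone, and leaving out each array. Coordinates are given only for promoters, since the arrays name build hg19 and the reference is GRCh38.p14.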

Additional observations from a re-analysis of the deposited data

How the results depend on the processing

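With arrays centred on the median, on the authors' value table, with quantile normalization, with no filter on dim probes, with only genes well above background on all 8 arrays, with the 4 arrays compared alone and with a Student test of each gene alone, 0 of the 10 EMT genes passed on silencing in MDAH (1 as reported), and with an intensity trend 2 did. In the average 0 passed with no filter, with normexp and with genes well above background on all 8 arrays. Between the lines (9 as reported) 9 passed with no filter and 6 with genes well above background on all 8 arrays. In the latter CDH1, FN1, SNAI2 and ZEB2 were not tested. Over all genes, silencing in MDAH (316 as reported) gave 498 with normexp, 143 with the 4 arrays alone, 114 with genes well above background on all 8 arrays and 0 with the Student test after adjustment (1961 before). Silencing in SKOV3 (155) gave 460 with normexp, 273 with the trend, 39 with no filter, 0 with the 4 arrays alone and 0 with the Student test (1758 before adjustment). The average (880) gave 1382 with the trend and 370 with no filter. The difference between the lines (15) gave 23 with median centring, 28 with the authors' table, 29 with quantile normalization, 32 with the mean of probes, 9 with normexp, and 0 with the trend and with genes well above background on all 8 arrays. The cause was not tested. Median centring moved the median of all genes from 0.10 to 0.21 for silencing in MDAH, from 0.05 to 0.21 between the lines and from -0.12 to -0.26 for the difference.

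Leaving out 1 array gave 8 to 9 EMT genes between the lines, 0 to 1 in MDAH, 0 to 1 in the average, and 0 in SKOV3 and in the difference. Over all genes it gave 6759 to 9320 between the lines, 0 to 182 for the difference, 32 to 1686 for the average, 9 (without MDAH control 1) to 1091 (without MDAH sh-SFPQ#2) in MDAH, and 13 (without either MDAH control) to 595 (without SKOV3 sh-SFPQ#2) in SKOV3. A lone array was assumed to vary like the other groups.

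Signs turned as follows, and of these values HMGA2 alone had passed the test among the silencing results. With normexp, the average change was -0.0050 for CDH1 and -0.0090 for VIM, CDH2 in MDAH stood at -0.026, GRHL3 between the lines at 0.12, and ZEB2 at 0.037 between the lines and -0.43 in the difference. CDH2 in MDAH stood at -0.091 with the authors' table and -0.090 with quantile normalization, and ZEB1 in SKOV3 at 0.034 and 0.031. With the mean of probes HMGA2 stood at 0.19 in the average. When 1 array was left out, CDH1 in MDAH ranged from -1.42 to 0.023 (turned without sh-SFPQ#3), FN1 in MDAH from -0.093 (without sh-SFPQ#3) to 0.87, and CDH2 in MDAH from -0.23 (without sh-SFPQ#2, and -0.15 without control 1) to 0.29. In the average, CDH1 ranged from -0.016 (without SKOV3 control 2) to 0.80, FN1 from -0.13 to 0.36 and VIM from -0.016 to 0.081, the latter pair turned without MDAH sh-SFPQ#3. TWIST1 in SKOV3 ranged from -0.29 to 0.017 (without sh-SFPQ#3). In the difference, SNAI2 ranged from -1.21 to 0.23 (without MDAH sh-SFPQ#3) and ZEB2 from -0.17 (without SKOV3 control 1, and below 0 also without SKOV3 sh-SFPQ#3 or MDAH control 2) to 0.90. SNAI2 in MDAH, not well above background in either group, passed without sh-SFPQ#2 (1.65; limma, adjusted p = 0.0219).

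The numbers of controls and shRNAs recur in both lines. Arrays of the same number deviated from their group means with r = 0.078 over genes for controls and 0.363 for shRNAs. The main fit did not pair them, so p-values of the average do not account for deviations shared between the lines. The fit with the replicate number as a block had a term for the control number and a separate term for the shRNA number, each shared by both lines. It called 2 EMT genes in MDAH, 1 in SKOV3, 1 in the average, 0 in the difference and 10 between the lines. ZEB2 passed in each of these but the difference. Over all genes this fit called 862, 688, 1770, 0 and 9564. Signal over background limits CDH1, FN1, SNAI2 and ZEB2, which had groups not well above background.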
